A study of Homo sapiens with 18 samples.

Results

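The transcriptome of LNCaP cells kept for 72 h with ACBI at 0.2 µM was set against that of cells kept for 72 h with P-16 at 10 µM. LNCaP is an established human prostate adenocarcinoma line that responds to androgens. The comparison rests on 6 libraries, 3 per compound, of 18 in the series, and on every gene of the count table. It was made over the 15422 genes with enough counts of 20145 listed. All cells grew in RPMI medium with 10% fetal bovine serum, so both groups had the hormones and lipids of serum. The 3 libraries with DMSO, the vehicle, are given beside them as the level without compound. By its title, the series deals with selective BRD7 bromodomain inhibitors in prostate cancer, BRD7 being part of the chromatin remodeller PBAF. The labels name neither a target nor a structure for ACBI and P-16, and they do not say whether replicate libraries came from separate cultures. P-values therefore measure the spread between these libraries, which may be technical. The doses differ between the compounds, so every difference below is one between a compound at its dose and another compound at another dose.

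In LNCaP cells androgens drive luminal genes such as KLK3, the gene of prostate-specific antigen. MYC and the E2F factors drive ribosome production and entry into S phase. E2F sites mark genes of DNA replication, and CHR elements, often beside CCAAT boxes, mark genes of mitosis, which non-dividing cells keep silent. The integrated stress response works through ATF4, which binds amino acid response elements, and the response to low oxygen works through HIF factors, which bind a short core shared with other factors.

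Libraries of both compounds and DMSO held 17210743 to 26150917 counts. Replicate 3 of ACBI stood apart: ribosomal RNA genes took 8.6% of its counts, against 0.65% to 1.62% in the other 8 of these libraries. With those genes removed, its counts still differed from replicates 1 and 2 of ACBI with a chi-square per degree of freedom of 13.4 and 8.89, against 2.25 to 3.03 for the other 7 replicate pairs. Counts of calls, list medians and the log2 fold changes of named genes were recomputed without it. Then 10853 genes passed in place of 11024, and the median of 53 of 55 gene lists, the ribosomal RNA list aside, moved by less than 0.1 on the log2 scale. Of these 55 the 7 tested genes of the aryl hydrocarbon receptor list moved furthest, by 0.397, and the median of the ribosomal RNA list was -0.11 without replicate 3 and 1.44 with it. The luminal markers HOXB13, KRT8 and KRT18 were present in all libraries. Summed over 10 luminal markers, the level was 5019 to 5165 CPM with ACBI, 7866 to 7881 CPM with P-16 and 10370 to 10400 CPM with DMSO (CPM, counts relative to the scaled library total). Of 8 immune markers only CD68 had enough counts to be tested, and PTPRC had 0 counts in all 9 libraries. Of the basal markers, TP63 and KRT5 are not in the table used here, and 3 were tested, DST (0.95 ± 0.081) and KRT14 (1.09 ± 0.40) higher and ITGB4 (-0.38 ± 0.16) lower with ACBI. The KRT14 call was lost without replicate 1 of ACBI or replicate 2 or 3 of P-16. The ITGB4 call was lost without replicate 2 or 3 of either compound, and in a fit of the 6 libraries alone (-0.3998). The summed level of the basal markers was 30.4 to 34.1 CPM with ACBI, 19.9 to 21.2 CPM with P-16 and 18.9 to 21.5 CPM with DMSO, and the part of basal cells in the results was not tested.

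The transcriptomes differed widely between the compounds. Of the 15422 genes, 11024 (71.5%) differed between ACBI and P-16 at an adjusted p under 0.05 in edgeR's quasi-likelihood test, 5399 (35%) higher and 5625 (36.5%) lower with ACBI. Large differences leaned downwards: 1123 genes (7.28%) were at least 2-fold higher and 1998 (13%) at least 2-fold lower, at 4-fold the counts were 242 (1.57%) and 951 (6.17%), and at 8-fold they were 58 (0.376%) and 550 (3.57%). The 3 ACBI libraries lay wholly above the 3 P-16 libraries for 5467 genes (35.4%) and wholly below them for 5674 (36.8%). The median log2 fold change over all genes was -0.0048, with quartiles of -0.49 and 0.39 and a median standard error of 0.078. Against DMSO, ACBI differed in 11097 genes (72%) and P-16 in 3699 (24%), and at 2-fold ACBI had 1188 genes higher (7.7%) and 2016 lower (13.1%), and P-16 had 152 higher (0.986%) and 146 lower (0.947%). These contrasts share libraries with the direct one and with each other, so their values are set side by side and support nothing for each other. Since totals are scaled out, a change in the RNA content of a whole cell is not measured, and fewer cells in a state cannot be told apart from less RNA per cell.

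**Figure D1:**
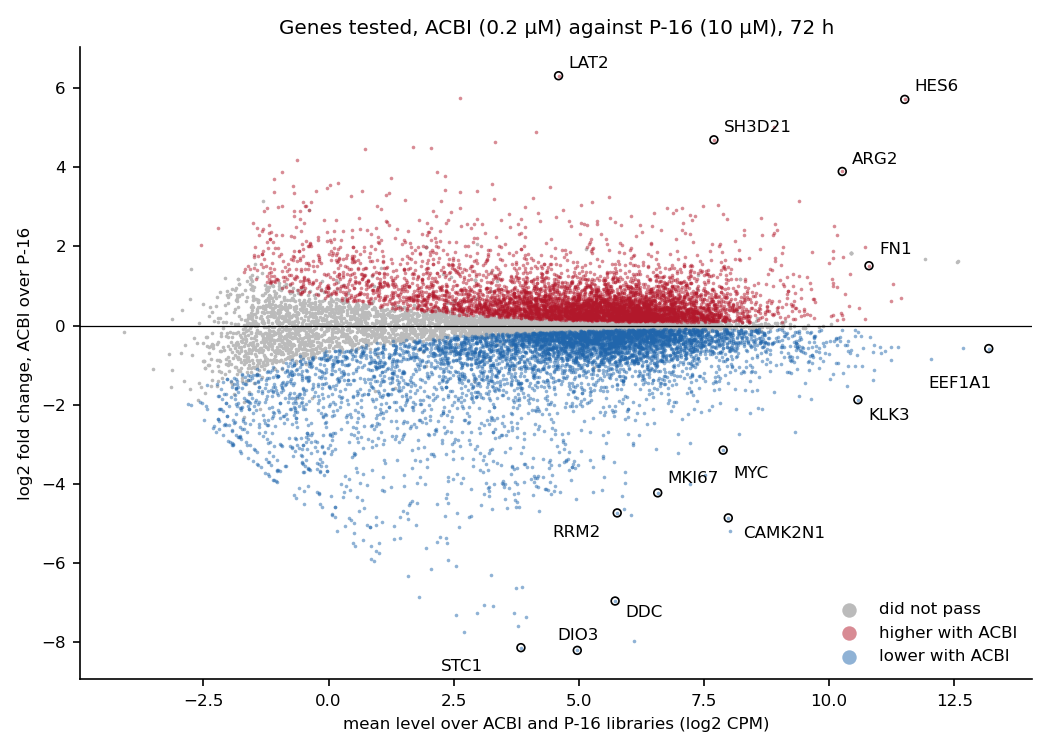
Log2 fold change of ACBI over P-16 (vertical axis) against the mean level over their 6 libraries (horizontal axis, log2 CPM) for 15193 genes. Red genes were higher and blue genes lower with ACBI at an adjusted p under 0.05, grey genes did not pass, and 229 genes with 3 counts or fewer in a group are not drawn. HES6 and ARG2 combine a high level with a large rise, and the field of large changes extends further down than up.

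HES6, a HES-family transcription regulator that opposes HES1, stood out among the rises at its level. It lies on chromosome 2, bases 238238267 to 238240038, minus strand (hg38), and had 5773, 5882 and 5545 CPM in the ACBI libraries, against 109.5, 111 and 106 CPM in the P-16 libraries and 187, 180.3 and 184 CPM in the DMSO libraries. The ACBI libraries lay wholly above the others, 52.6-fold above P-16 (log2 fold change 5.72 ± 0.058, adjusted p = 3.72e-30, with the standard error after ± here and below). ARG2, the mitochondrial arginase, had 2254, 2323 and 2333 CPM in the ACBI libraries, against 160.1, 151 and 153 CPM in the P-16 libraries and 248, 232 and 232 CPM in the DMSO libraries, with no overlap (log2 fold change 3.90 ± 0.044, adjusted p = 1.3e-32). The compounds lay on opposite sides of DMSO for both genes: the log2 fold changes over DMSO were 4.96 with ACBI and -0.75 with P-16 for HES6, and 3.28 and -0.62 for ARG2.

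The largest rise by fold was that of LAT2, an adaptor of immune receptor signalling, on chromosome 7, bases 74210006 to 74229834, plus strand, with 49.3, 49.3 and 44.7 CPM in the ACBI libraries, against 0.488, 0.651 and 0.670 CPM in the P-16 libraries and 1.80, 1.92 and 1.29 CPM in the DMSO libraries (log2 fold change 6.32 ± 0.15). SH3D21 followed among well-expressed genes with 413, 401 and 387 CPM in the ACBI libraries, against 15.5, 15.0 and 15.9 CPM in the P-16 libraries (log2 fold change 4.70 ± 0.062). GLI1, a hedgehog-pathway transcription factor, had 8.31, 7.22 and 8.04 CPM in the ACBI libraries, against 0, 0.604 and 0.502 CPM in the P-16 libraries, also without overlap. The remaining large rises were GALNT12, which starts mucin-type glycosylation, at 5.75 ± 0.30, the protease gene TLL2 at 4.88 ± 0.15 and CHRM4, a muscarinic receptor gene, at 4.50 ± 0.28. PRR16, the ectoenzyme gene ENTPD8 and GMNC, a geminin relative, followed at 3.88 ± 0.27, 3.77 ± 0.28 and 3.72 ± 0.32. HPGD, which inactivates prostaglandins, had means of 19.2 CPM with ACBI, 0.766 CPM with P-16 and 9.04 CPM with DMSO. Its log2 fold change of 4.64 ± 0.17 therefore had a larger share on the P-16 side of DMSO (-3.55 over DMSO) than on the ACBI side (1.09).

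The deepest falls ended near 0. KRT75, a hair-follicle keratin, had 0 counts over the 3 ACBI libraries and 298 over the P-16 libraries, at least 113-fold lower with a floor of 3 counts over the group. MRGPRE had 1 count against 367 (ratio 418, 95% counting interval 74.5 to 16500), and CRYAB, a small heat shock protein gene, 1 against 289 (ratio 329, 58.6 to 13000). TM4SF1, a tetraspanin-like membrane protein gene, had 3 against 666 (ratio 253, 86.1 to 1230). These intervals cover counting error only.

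Among falls with more counts, DIO3, which inactivates thyroid hormone, had 0.233, 0.217 and 0.166 CPM in the ACBI libraries, against 64.3, 60.6 and 62.5 CPM in the P-16 libraries and 40.0, 42.2 and 38.6 CPM in the DMSO libraries (log2 fold change -8.21 ± 0.12), and DIO1, another deiodinase, fell as well, to a mean of 0.133 CPM with ACBI against 19.4 CPM with P-16. STC1, a stanniocalcin gene, had 0.117, 0.0435 and 0.124 CPM in the ACBI libraries, against 29.4, 26.5 and 30.0 CPM in the P-16 libraries and 6.87, 6.07 and 8.38 CPM in the DMSO libraries. None of these genes had overlapping libraries, which the rule for naming the largest rises and falls required in advance. Log2 fold changes were -7.59 ± 0.17 for IL1RN, the interleukin-1 receptor antagonist, -7.27 ± 0.18 for RYR2, a calcium release channel, -7.26 ± 0.20 for OR51E1, an olfactory receptor gene expressed in prostate, and -7.38 ± 0.15 for the long non-coding RNA PCAT1. In CPM, the largest falls were those of EEF1A1 (7488 and 11203 CPM with ACBI and P-16), EEF2 (5317 and 7856 CPM), GAPDH (2996 and 5407 CPM), KLK3 (654 and 2399 CPM), FTH1 (1047 and 2715 CPM) and ENO1 (1197 and 2622 CPM), and the larger rises after HES6 and ARG2 included ABHD2 (3372 and 1620.0 CPM), FN1 (2636 and 924 CPM) and FGFRL1 (1891 and 390.1 CPM).

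Genes of cell division were far lower with ACBI than with P-16. Of 38 genes of mitosis and the spindle, 0 were higher, 37 were lower and 1 did not pass (median log2 fold change -3.58), where 36.5% of all genes were lower. MKI67, the proliferation antigen Ki-67, had 10.5, 9.18 and 9.32 CPM in the ACBI libraries, against 179.7, 178 and 187 CPM in the P-16 libraries and 224, 235 and 231 CPM in the DMSO libraries. The ACBI libraries lay wholly below the P-16 libraries, by 18.7-fold (log2 fold change -4.23 ± 0.055, adjusted p = 3.87e-31). TOP2A, topoisomerase II alpha, had 4.70, 4.52 and 4.56 CPM in the ACBI libraries, against 119.9, 108 and 117 CPM in the P-16 libraries (log2 fold change -4.64 ± 0.066). NUSAP1, a spindle protein, and BIRC5, survivin, had log2 fold changes of -4.15 ± 0.064 and -3.83 ± 0.068. CDK1, the mitotic kinase itself, was the exception. It had 76.1, 83.6 and 110.3 CPM in the ACBI libraries, against 79.6, 75.2 and 74.1 CPM in the P-16 libraries and 93.1, 91.1 and 81.2 CPM in the DMSO libraries, overlapping between the groups, and did not pass (log2 fold change 0.24 ± 0.12, adjusted p = 0.0837, 95% interval -0.014 to 0.49). Without replicate 1 of ACBI it passed, at a log2 fold change of 0.35, and without replicate 3 of ACBI it did not, at 0.069. CCNB1 and CCNB2, the cyclins that activate that kinase, were lower, at -1.93 ± 0.042 and -3.82 ± 0.10. Against DMSO, 0 of the 38 were higher and 37 lower with ACBI (median log2 fold change -4.02), and 0 were higher and 35 lower with P-16 (median -0.38). Of all genes, 36.6% were lower with ACBI than with DMSO and 11.6% with P-16.

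Genes of DNA replication and nucleotide supply were lower as well. Of 40 tested, 1 was higher, 39 were lower and 0 did not pass (median -2.07). RRM2, a subunit of ribonucleotide reductase, had 3.85, 3.74 and 4.23 CPM in the ACBI libraries, against 109.9, 102 and 103 CPM in the P-16 libraries and 133, 135 and 135 CPM in the DMSO libraries (log2 fold change -4.74 ± 0.071, adjusted p = 6.89e-30). The helicase subunit genes MCM4 and MCM7 had log2 fold changes of -2.47 ± 0.045 and -2.03 ± 0.042, and TK1, thymidine kinase, -3.97 ± 0.075. PRIM2, a primase subunit, went the other way, with 22.3, 21.7 and 25.2 CPM in the ACBI libraries, against 14.4, 13.8 and 15.2 CPM in the P-16 libraries (log2 fold change 0.67 ± 0.077, adjusted p = 6.45e-09). The 22 genes of homologous recombination and the Fanconi anemia pathway were all lower (median -2.66): BRCA1 had 2.87, 3.31 and 2.90 CPM in the ACBI libraries, against 42.8, 41.4 and 40.1 CPM in the P-16 libraries and 53.1, 52.8 and 49.6 CPM in the DMSO libraries (log2 fold change -3.78 ± 0.082), and FANCI, FANCD2 and RAD54L had log2 fold changes of -3.39 ± 0.070, -2.87 ± 0.075 and -4.30 ± 0.13. With P-16, 10 of the 40 replication genes and 10 of the 22 repair genes were lower than with DMSO, at medians of -0.10 and -0.18, where 11.6% of all genes were lower.

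Regulators of S-phase entry were lower more unevenly. Of 21 tested cyclins, CDKs, E2F and RB genes, 2 were higher, 18 were lower and 1 did not pass (median -0.67). MYBL2 was 20.7-fold lower, E2F1 11.6-fold and E2F7 28.8-fold, while CCND1, cyclin D1, had 216, 226 and 213 CPM in the ACBI libraries, against 481, 476 and 495 CPM in the P-16 libraries, 2.21-fold lower. CDK6 was the opposite case with 5.63, 5.52 and 5.59 CPM in the ACBI libraries, against 2.16, 1.77 and 2.34 CPM in the P-16 libraries (log2 fold change 1.42 ± 0.18), and RB1 was higher by 0.36 ± 0.061. Inhibitors of CDKs did not rise as a group: of 8, 3 were higher, 3 were lower and 2 did not pass. CDKN1A, which encodes p21, had 111, 103 and 91.4 CPM in the ACBI libraries, against 305, 319.6 and 314 CPM in the P-16 libraries and 272, 271 and 271 CPM in the DMSO libraries and was lower (log2 fold change -1.62 ± 0.047, adjusted p = 8.84e-23). CDKN3 and CDKN2C were lower too, at -2.77 ± 0.10 and -1.63 ± 0.077, and CDKN2B (p15) and CDKN1B (p27) were higher, at 1.36 ± 0.16 and 0.29 ± 0.067. CDKN2A and CDKN1C did not pass, though CDKN2A did without replicate 3 of ACBI, at 0.20.

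Promoters of some genes that fell carry the letters of the factors named above, and 8 are printed to show them beside the values. Sequences are from RefSeq's annotation of GRCh38.p14, matched by symbol, chromosome and strand, which worked for 32 of the 38 mitosis genes, 34 of the 40 replication genes, 20 of the 22 stress-response genes and 27 of the 30 hypoxia genes. Each line gives the 130 bases before the start of the gene, 5′ to 3′ on its own strand. The first 3 are mitosis genes, with capitals for CHR elements (TTTGAA) and CCAAT boxes (CCAAT), on either strand and overlapping where they meet.
MKI67: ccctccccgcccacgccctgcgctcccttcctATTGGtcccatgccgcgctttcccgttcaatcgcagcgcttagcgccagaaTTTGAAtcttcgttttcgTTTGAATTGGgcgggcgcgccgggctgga
PLK1: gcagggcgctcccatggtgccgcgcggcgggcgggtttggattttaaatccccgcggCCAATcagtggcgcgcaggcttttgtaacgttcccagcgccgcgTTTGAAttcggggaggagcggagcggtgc
CCNB2: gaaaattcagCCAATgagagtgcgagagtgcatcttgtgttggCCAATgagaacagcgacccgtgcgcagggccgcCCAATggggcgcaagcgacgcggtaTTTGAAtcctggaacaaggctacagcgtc
They lie at chr10:128126424-128126553 (minus strand), chr16:23678759-23678888 (plus strand) and chr15:59105016-59105145 (plus strand). PLK1, the polo-like mitotic kinase, and CCNB2, cyclin B2, had log2 fold changes of -3.66 ± 0.084 and -3.82 ± 0.10, next to -4.23 for MKI67. In the 250 bases before the start, a CHR element stood in 16 of 32 mitosis promoters (50%), against 8.36% of the 11687 promoters of tested genes and 13.6% of the 27305 promoters of the RefSeq table. A CCAAT box stood in 26 (81.2%), against 35.1% of tested genes and 33% of the table. The next 3 are replication genes, with capitals for E2F sites (TTTCCCGC, TTTGGCGC or TTTCGCGC) and CCAAT boxes.
MCM6: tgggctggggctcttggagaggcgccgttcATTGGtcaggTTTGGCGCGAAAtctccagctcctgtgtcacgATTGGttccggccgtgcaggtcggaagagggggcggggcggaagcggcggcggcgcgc
MCM7: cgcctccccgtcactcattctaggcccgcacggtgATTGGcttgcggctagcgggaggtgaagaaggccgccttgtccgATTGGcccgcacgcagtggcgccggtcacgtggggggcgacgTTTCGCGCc
PCNA: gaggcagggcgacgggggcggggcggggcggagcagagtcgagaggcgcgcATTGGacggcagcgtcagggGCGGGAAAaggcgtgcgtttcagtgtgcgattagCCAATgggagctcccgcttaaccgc
They lie at chr2:135876444-135876573 (minus strand), chr7:100101398-100101527 (minus strand) and chr20:5126623-5126752 (minus strand). MCM6 and MCM7, helicase subunits, had log2 fold changes of -1.29 ± 0.050 and -2.03 ± 0.042, and PCNA, the replication clamp, of -1.43 ± 0.049. An E2F site stood in 13 of 34 replication promoters (38.2%), against 3.89% of tested genes and 2.38% of the table, in 2 of 32 mitosis promoters (6.25%) and in 0 of 19 of the repair genes, which also fell. The letters were not limited to genes that fell: of 36 promoters of clustered histone genes, a list with more members higher than lower, 9 held an E2F site (25%) and 31 a CCAAT box (86.1%), and of 20 promoters of the cholesterol list 15 held a CCAAT box (75%). The last pair stands for the groups described further on: ASNS with its amino acid response element (TGATGNAA) and LDHA with hypoxia response cores (ACGTG, some as the overlapping palindrome CACGTG) in capitals.
ASNS: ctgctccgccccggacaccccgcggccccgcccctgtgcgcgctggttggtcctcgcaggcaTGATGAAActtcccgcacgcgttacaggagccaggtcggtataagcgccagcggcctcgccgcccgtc
LDHA: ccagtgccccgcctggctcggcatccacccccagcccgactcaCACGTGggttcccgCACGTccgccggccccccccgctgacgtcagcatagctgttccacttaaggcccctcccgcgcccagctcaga
They lie at chr7:97872409-97872538 (minus strand) and chr11:18394433-18394562 (plus strand). The amino acid response element stood in 4 of 20 stress-response promoters (20%), against 1.44% of tested genes and 3.19% of the table. The hypoxia core stood in 12 of 27 hypoxia promoters (44.4%), against 23% and 18.7%. Other motifs were less frequent in their list: an E-box (CACGTG) stood in 1 of 29 ribosome biogenesis promoters (3.45%), against 8.8% and 6.49%, and an androgen response half-site (AGAACA) in 2 of 40 androgen-induced promoters (5%), against 7.62% and 12.4%. A match of letters is no measured binding site.

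**Figure D2:**
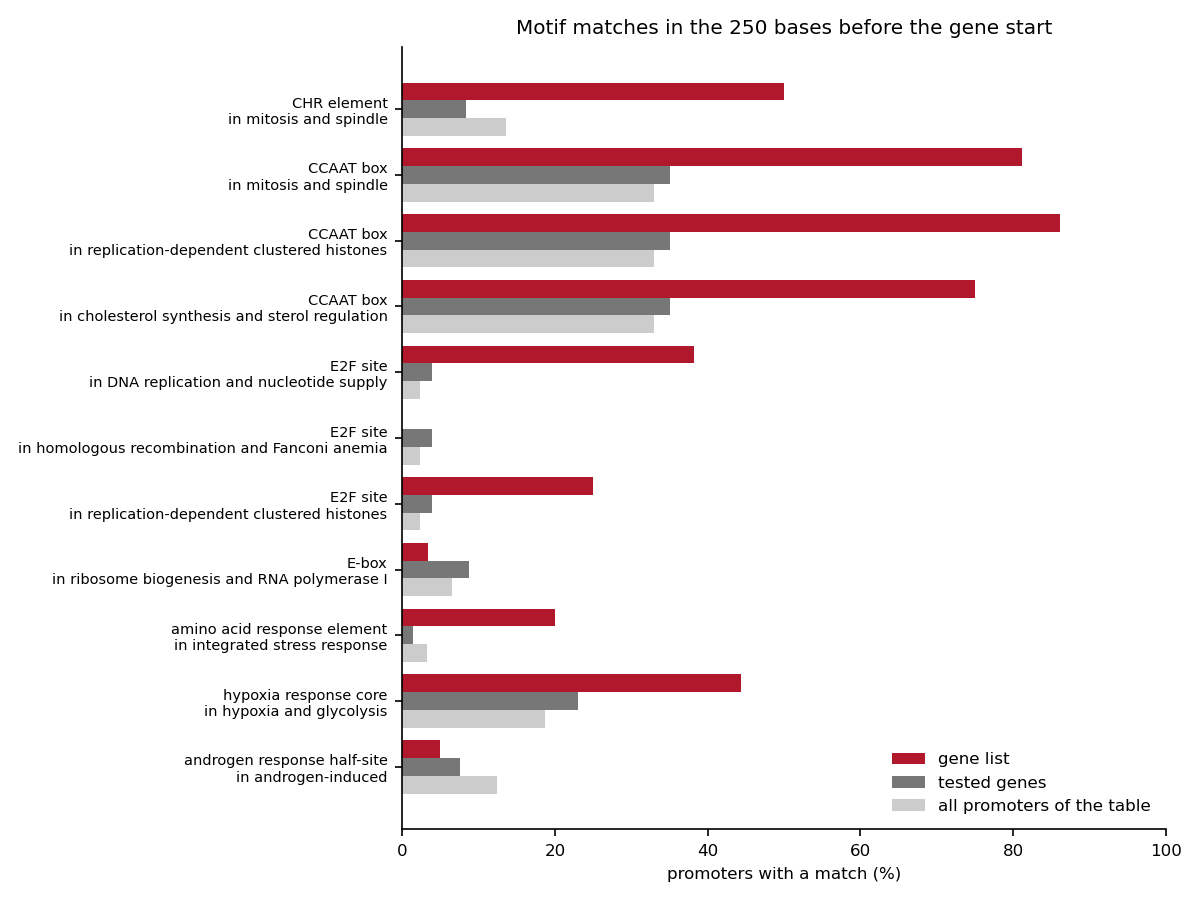
Share of promoters (horizontal axis, percent) with at least 1 match on either strand in the 250 bases before the gene start, for 11 pairs of motif and gene list (red), beside the 11687 promoters of tested genes (dark grey) and all 27305 promoters of the RefSeq table (light grey). The share was 50% for the CHR element in mitosis genes, 0 for the E2F site in repair genes and 86.1% for the CCAAT box in clustered histones.

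**Figure D3:**
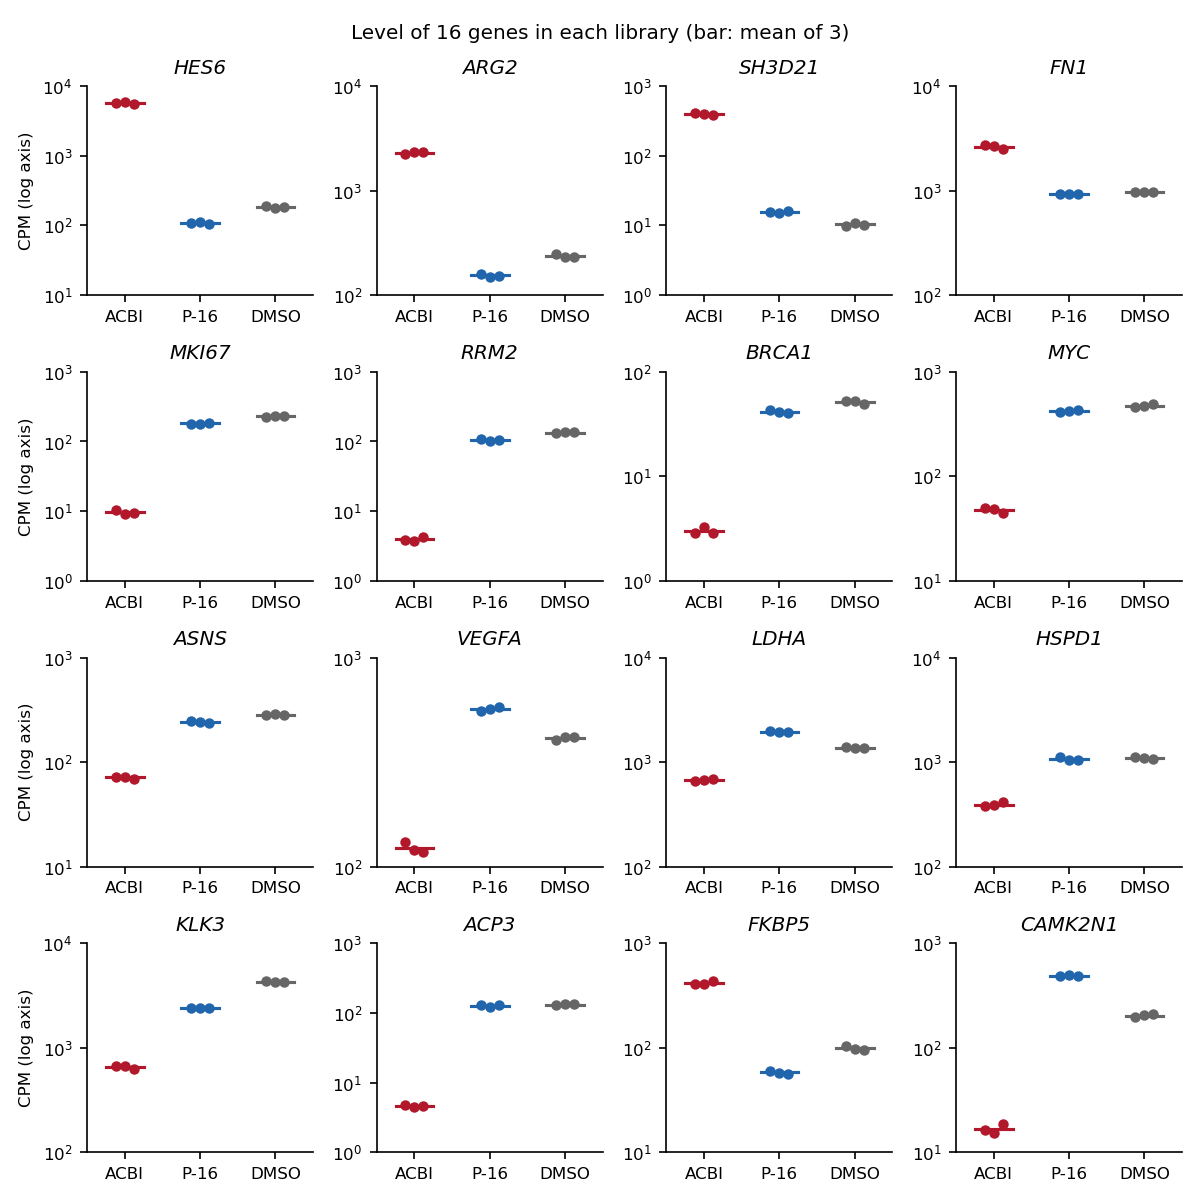
Level of 16 genes (vertical axes, CPM, log scale) in the 3 ACBI, 3 P-16 and 3 DMSO libraries, with a bar at the mean of each group. Replicates of a group lie close together in all 16 panels, and the ACBI libraries lie wholly above (HES6, ARG2, SH3D21, FN1, FKBP5) or wholly below the P-16 libraries.

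MYC, the transcription factor behind much ribosome production, was lower with ACBI. It had 50.1, 48.8 and 44.6 CPM in the ACBI libraries, against 412, 426 and 435 CPM in the P-16 libraries and 462, 473 and 489 CPM in the DMSO libraries, with no overlap and an 8.87-fold difference (log2 fold change -3.15 ± 0.047, adjusted p = 6.89e-30). Its relative MYCL was higher, with 26.0, 24.2 and 22.7 CPM in the ACBI libraries, against 8.34, 9.29 and 8.99 CPM in the P-16 libraries (log2 fold change 1.46 ± 0.084). Among 12 tested genes of the MYC, MAX and MXD network, 4 were higher, 6 were lower and 2 did not pass. MXD4, a MYC antagonist, was higher by 0.67 ± 0.052, MXI1 lower at -0.45 ± 0.041, and MAX itself did not pass.

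Genes of ribosome production were lower. Of 36 genes of ribosome biogenesis and RNA polymerase I, 1 was higher, 34 were lower and 1 did not pass (median -0.93). GNL3, nucleostemin, had 104, 109 and 115 CPM in the ACBI libraries, against 307, 287 and 305 CPM in the P-16 libraries and 299, 291 and 292 CPM in the DMSO libraries (log2 fold change -1.46 ± 0.037, adjusted p = 2.86e-24). MYBBP1A, DKC1, the pseudouridine synthase dyskerin, and NOLC1 had log2 fold changes of -1.48 ± 0.040, -1.38 ± 0.041 and -1.17 ± 0.036, and UBTF, the activator of ribosomal RNA genes, was the member that rose, by 0.44 ± 0.039. Of 84 cytosolic ribosomal protein genes, 2 were higher, 80 were lower and 2 did not pass, by a smaller amount (median -0.44): RPL14 had a log2 fold change of -0.84 ± 0.032 and RPS3 of -0.82 ± 0.032. The paralogue RPL26L1 rose by 0.32 ± 0.055. Many of these genes have processed pseudogenes, between which the authors' counting could split reads. The 78 mitochondrial ribosomal protein genes were divided, 11 higher and 40 lower (median -0.12). Of 20 cytosolic aminoacyl-tRNA synthetase genes, 18 were lower and 0 higher (median -0.67), led by GARS1 at -1.41 ± 0.038 and IARS1 at -1.2 ± 0.034. With P-16, 0 of 36 ribosome biogenesis genes were higher and 9 lower than with DMSO (median -0.082), where 11.6% of all genes were lower.

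Targets of ATF4 were lower with ACBI. Of 22 genes of the integrated stress response, 0 were higher, 20 were lower and 2 did not pass (median -1.21, also with FGF21 at its bound). ASNS, asparagine synthetase, had 72.2, 72.6 and 69.1 CPM in the ACBI libraries, against 246, 239.9 and 234 CPM in the P-16 libraries and 284, 289 and 280.2 CPM in the DMSO libraries (log2 fold change -1.75 ± 0.037, adjusted p = 2e-26). TRIB3, a pseudokinase that ATF4 induces, had 52.1, 50.5 and 49.8 CPM in the ACBI libraries, against 236, 245 and 238 CPM in the P-16 libraries, and SLC7A5, the leucine transporter, had 2.33, 2.61 and 2.03 CPM in the ACBI libraries, against 31.4, 32.0 and 33.3 CPM in the P-16 libraries, 13.9-fold lower. The libraries did not overlap for these 3 genes. STC2, DDIT4, an inhibitor of mTORC1, and NUPR1 had log2 fold changes of -2.97 ± 0.039, -2.12 ± 0.035 and -2.11 ± 0.040, and CHAC1, which degrades glutathione, of -2.69 ± 0.072. FGF21, a secreted stress hormone, had 0 counts with ACBI, 67 with P-16 and 77 with DMSO, at least 25.4-fold lower than with P-16. ATF4 itself was 1.88-fold lower, and ATF3 and CTH did not pass (without replicate 2 of P-16 CTH did, at -0.21). Serine synthesis and one-carbon genes followed, with 10 of 12 lower (median -1.28). PHGDH, the first enzyme of serine synthesis, had 147, 151 and 142 CPM in the ACBI libraries, against 609.7, 617 and 622 CPM in the P-16 libraries and 611, 597 and 629.5 CPM in the DMSO libraries (log2 fold change -2.07 ± 0.037), and SHMT2 and MTHFD2, the mitochondrial folate enzymes, had log2 fold changes of -1.69 ± 0.036 and -1.88 ± 0.044.

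The unfolded protein response shifted less, with 16 of 20 genes lower and 2 higher (median -0.41). XBP1, its transcription factor, had 100.2, 98.4 and 101 CPM in the ACBI libraries, against 249, 242 and 240.0 CPM in the P-16 libraries (log2 fold change -1.29 ± 0.037), and the chaperones HSP90B1, MANF and HSPA5 had log2 fold changes of -0.94 ± 0.038, -1.08 ± 0.045 and -0.77 ± 0.033. EDEM1 and DNAJC3 were the pair that rose, by 0.40 ± 0.045 and 0.20 ± 0.064.

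Androgen-induced genes split within the list. Of 52 tested, 40 were higher, 11 were lower and 1 did not pass (median 0.88), where 35% of all genes were higher. FKBP5, a co-chaperone of steroid receptors, had 405, 404 and 433 CPM in the ACBI libraries, against 60.0, 58.1 and 56.2 CPM in the P-16 libraries and 104, 96.7 and 96.3 CPM in the DMSO libraries (log2 fold change 2.83 ± 0.044, adjusted p = 1.72e-29). NCAPD3, a condensin subunit, had 701, 688 and 682 CPM in the ACBI libraries, against 105, 105 and 105 CPM in the P-16 libraries and 105, 104 and 111 CPM in the DMSO libraries (log2 fold change 2.72 ± 0.039). SLC45A3, the prostate gene for prostein, had 1276, 1269 and 1109.9 CPM in the ACBI libraries, against 135, 139 and 139.7 CPM in the P-16 libraries and 445, 429 and 447 CPM in the DMSO libraries (log2 fold change 3.15 ± 0.052). For all 3 genes the ACBI libraries lay above both other groups. CAMKK2, a kinase upstream of AMPK, and CENPN, a centromere protein, were higher by 2.34 ± 0.039 and 2.30 ± 0.038. ELL2, an elongation factor, was higher by 2.43 ± 0.067, MAF by 2.84 ± 0.064 and KLK4 by 1.28 ± 0.055.

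Some of the best-known members went the other way. KLK3 lies on chromosome 19, bases 50854915 to 50860764, plus strand, and had 668, 668 and 626 CPM in the ACBI libraries, against 2386, 2394 and 2416 CPM in the P-16 libraries and 4325, 4232 and 4276 CPM in the DMSO libraries (log2 fold change -1.87 ± 0.032, adjusted p = 2.11e-28). KLK2, its neighbour in the kallikrein cluster, had 34.2, 33.1 and 32.1 CPM in the ACBI libraries, against 222, 222 and 219 CPM in the P-16 libraries and 609, 591 and 589 CPM in the DMSO libraries (log2 fold change -2.73 ± 0.041). ACP3, prostatic acid phosphatase, had 4.78, 4.44 and 4.56 CPM in the ACBI libraries, against 130.0, 123 and 128 CPM in the P-16 libraries and 128, 132 and 133 CPM in the DMSO libraries, so P-16 lay at the DMSO level and ACBI 27.6-fold below. TRPM8, the cold-sensing channel, and TMPRSS2, a membrane protease, were lower as well, at -1.77 ± 0.10 and -0.60 ± 0.037. Over the 52 genes against DMSO, 29 were higher and 17 lower with ACBI (median log2 fold change 0.20), and 3 were higher and 40 lower with P-16 (median -0.64). Of all genes, 35.4% were higher and 36.6% lower with ACBI than with DMSO, and 12.4% and 11.6% with P-16. P-16 therefore had most of the list below vehicle, and ACBI had it divided.

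**Figure D4:**
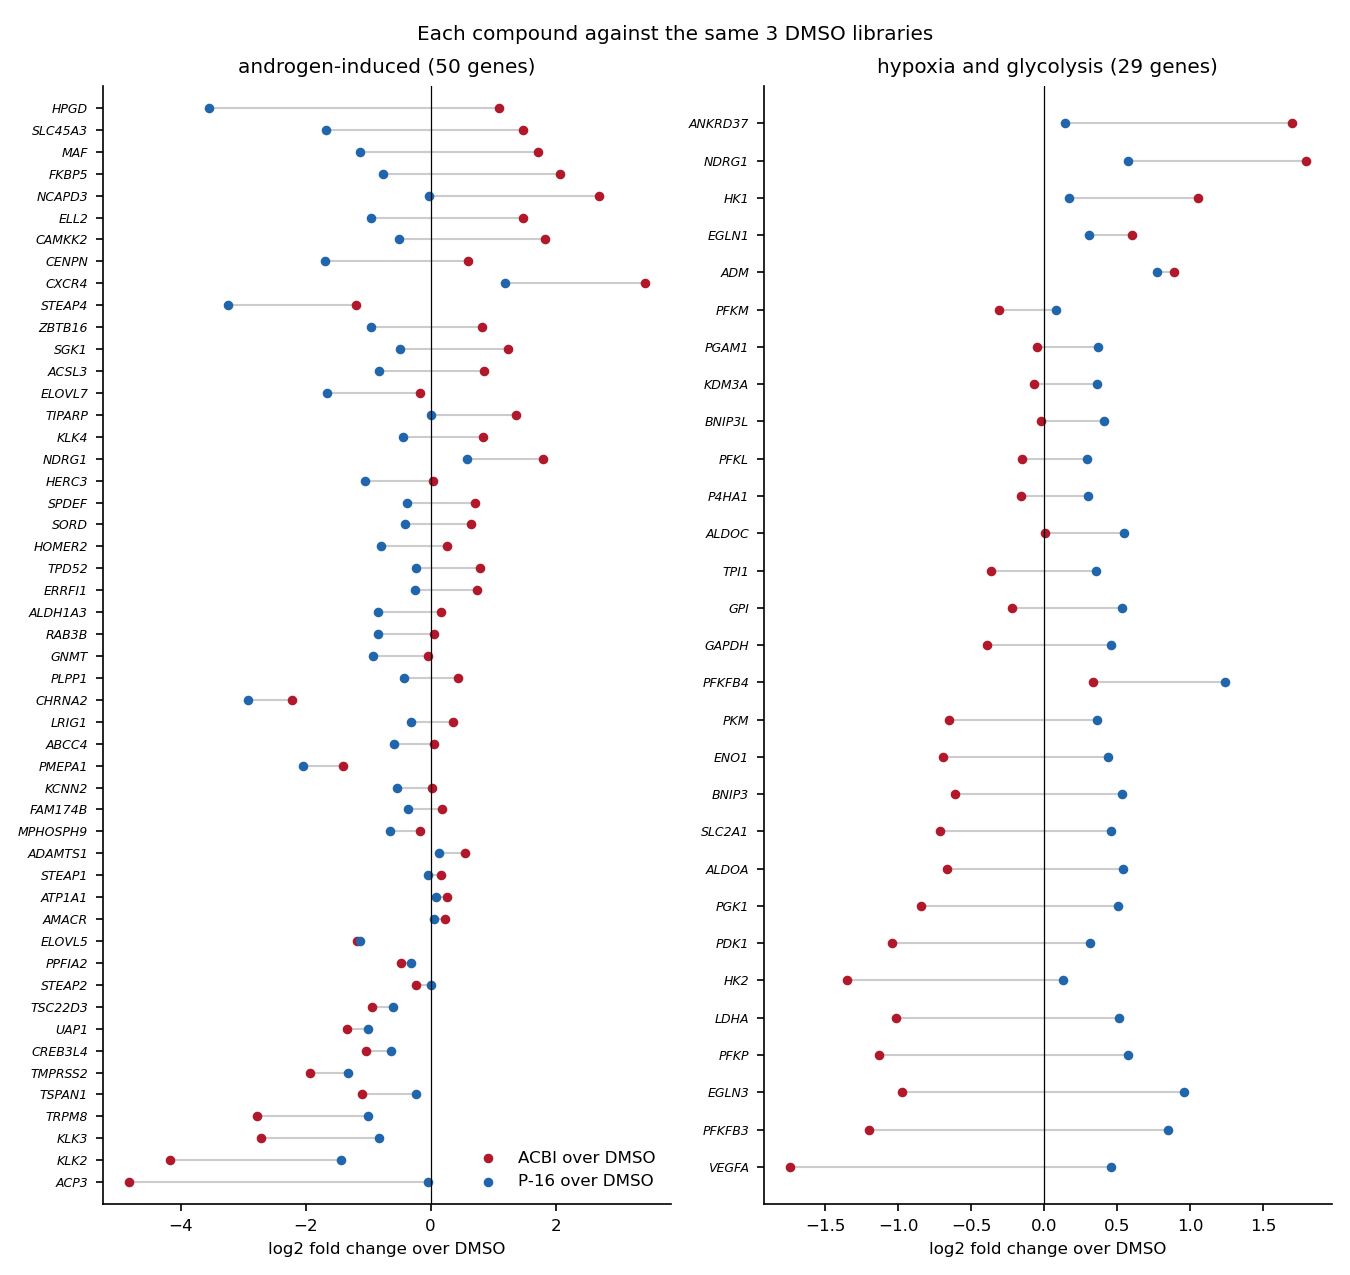
Log2 fold change over DMSO (horizontal axes) for 50 of the 52 tested members of the androgen-induced list (left) and the hypoxia and glycolysis list (right, without CA9, which had 0 counts with ACBI), ACBI in red and P-16 in blue, ordered by their difference. P-16 points lie left of 0 for most androgen-induced genes and right of 0 for the hypoxia genes, while ACBI points spread to both sides. Both compounds are set against the same 3 DMSO libraries.

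Androgen-repressed genes were mostly lower with ACBI than with P-16. Of 18 tested, 6 were higher, 10 were lower and 2 did not pass (median -0.74). CAMK2N1, an inhibitor of CaM kinase II, had 16.4, 15.4 and 18.7 CPM in the ACBI libraries, against 484, 496 and 491 CPM in the P-16 libraries and 197, 205 and 209 CPM in the DMSO libraries (log2 fold change -4.86 ± 0.053, adjusted p = 6.49e-33). UGT2B17, which glucuronidates androgens, had 17.9, 17.1 and 17.3 CPM in the ACBI libraries, against 282, 289 and 278 CPM in the P-16 libraries and 133, 130.3 and 123 CPM in the DMSO libraries (log2 fold change -4.02 ± 0.046), and its near relative UGT2B15 had a log2 fold change of -2.78 ± 0.052; the pair are similar enough in sequence that reads could be split between them. DDC, dopa decarboxylase, had 0.660, 1.04 and 0.829 CPM in the ACBI libraries, against 109.6, 106 and 98.9 CPM in the P-16 libraries (log2 fold change -6.96 ± 0.092). The ACBI libraries lay below all P-16 libraries in these genes. MET, the receptor of hepatocyte growth factor, was the strongest exception, with 5.32, 4.48 and 4.18 CPM in the ACBI libraries, against 0.977, 1.07 and 1.23 CPM in the P-16 libraries (log2 fold change 2.10 ± 0.23). Against DMSO, 6 were higher and 11 lower with ACBI (median log2 fold change -0.67), and 10 were higher and 3 lower with P-16 (median 0.65). The shares of all genes were 35.4% higher and 36.6% lower with ACBI, and 12.4% and 11.6% with P-16.

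Transcription factors of this lineage had no common direction. FOXA1, a pioneer factor, was higher by 0.30 ± 0.032, and HOXB13 did not pass (95% interval -0.16 to 0.019), though it did without replicate 1 of ACBI, at -0.12. GATA2, a zinc finger factor, had 86.9, 78.0 and 73.3 CPM in the ACBI libraries, against 320.5, 325 and 336 CPM in the P-16 libraries and 254, 254 and 256 CPM in the DMSO libraries (log2 fold change -2.04 ± 0.046, adjusted p = 1.16e-25). NR3C1, the glucocorticoid receptor gene, of which FKBP5 is a known target, had 6.45, 9.09 and 7.54 CPM in the ACBI libraries, against 1.26, 0.836 and 1.28 CPM in the P-16 libraries and 1.69, 2.88 and 1.47 CPM in the DMSO libraries (log2 fold change 2.77 ± 0.27, adjusted p = 7.7e-10). SPDEF was higher by 1.08 ± 0.057, ELF3 was lower at -0.79 ± 0.048, and PGR, the progesterone receptor gene, was lower at -5.20 ± 0.45 with means of 0.0535 and 2.20 CPM for ACBI and P-16. Over 18 such genes, 8 were higher, 6 were lower and 4 did not pass, a share of 77.8% called against 71.5% of all genes.

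Hypoxia and glycolysis genes were mostly lower with ACBI than with P-16, and most lay on opposite sides of DMSO. Of 30 tested, 4 were higher, 25 were lower and 1 did not pass (median -0.88, also with CA9 at its bound). VEGFA, the angiogenic growth factor, had 131, 119.7 and 117 CPM in the ACBI libraries, against 552, 566 and 578 CPM in the P-16 libraries and 404, 417 and 415 CPM in the DMSO libraries (log2 fold change -2.20 ± 0.041, adjusted p = 1.58e-27). LDHA, lactate dehydrogenase A, had 659, 677 and 694 CPM in the ACBI libraries, against 1984, 1922 and 1956 CPM in the P-16 libraries and 1385, 1365 and 1359 CPM in the DMSO libraries (log2 fold change -1.53 ± 0.032, adjusted p = 1.62e-26). PFKFB3, which sets the level of a glycolytic activator, had 16.9, 18 and 17.4 CPM in the ACBI libraries, against 71.2, 75 and 71.0 CPM in the P-16 libraries and 37.9, 42.1 and 40.3 CPM in the DMSO libraries (log2 fold change -2.06 ± 0.054). In all 3 genes the DMSO libraries lay between the ACBI and the P-16 libraries. PGK1, PFKP and HK2, enzymes of glycolysis, had log2 fold changes of -1.35 ± 0.032, -1.71 ± 0.041 and -1.48 ± 0.043. CA9, a carbonic anhydrase and hypoxia marker, had 0 counts with ACBI, 52 with P-16 and 10 with DMSO, at least 19.7-fold lower than with P-16. NDRG1, HK1, ANKRD37 and EGLN1 were higher, by 1.22, 0.89, 1.55 and 0.29, and ADM did not pass. Against DMSO, 6 were higher and 20 lower with ACBI (median log2 fold change -0.38), and 28 were higher and 0 lower with P-16 (median 0.46), where 12.4% of all genes were higher with P-16.

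Other stress programmes were also lower with ACBI than with P-16. Of 22 NRF2 targets, 2 were higher, 19 were lower and 1 did not pass (median -0.62). Over DMSO, 1 was higher and 18 lower with ACBI (median -0.32), and 12 were higher and 1 lower with P-16 (median 0.14). Of all genes, 12.4% were higher and 11.6% lower with P-16 than with DMSO. TKT, transketolase, had 189, 192 and 180.0 CPM in the ACBI libraries, against 497, 490.2 and 494 CPM in the P-16 libraries and 452, 446 and 466 CPM in the DMSO libraries (log2 fold change -1.40 ± 0.037), and FTH1, ferritin heavy chain, had 1090.4, 1059 and 990.2 CPM in the ACBI libraries, against 2711, 2714 and 2719 CPM in the P-16 libraries and 2045, 1993 and 2086 CPM in the DMSO libraries (log2 fold change -1.38 ± 0.037). NQO1 and PGD were lower at -0.95 ± 0.051 and -0.72 ± 0.039, and HMOX1 was higher by 0.39 ± 0.086. Of 20 heat shock genes, 4 were higher, 14 were lower and 2 did not pass (median -0.43). Over DMSO, 6 were higher and 10 lower with ACBI (median -0.11), and 13 were higher and 0 lower with P-16 (median 0.17). HSPD1, the mitochondrial chaperonin, had 377, 387 and 413 CPM in the ACBI libraries, against 1119, 1052 and 1038 CPM in the P-16 libraries and 1119, 1106 and 1069.8 CPM in the DMSO libraries (log2 fold change -1.45 ± 0.038), FKBP4 and HSP90AA1 had log2 fold changes of -0.99 ± 0.039 and -0.68 ± 0.035, and HSPA1B was higher by 0.70 ± 0.034 while its near-identical neighbour HSPA1A did not pass, so the split between that pair is uncertain.

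CYP1A1, the classic target of the aryl hydrocarbon receptor, was a gene of the P-16 side. It had 1.44, 1.44 and 1.12 CPM in the ACBI libraries, against 10.9, 11.6 and 10.4 CPM in the P-16 libraries and 0.349, 0.759 and 0.802 CPM in the DMSO libraries (log2 fold change -3.04 ± 0.19, adjusted p = 9.43e-15). All P-16 libraries lay above all others. Over DMSO its log2 fold change was 4.06 with P-16 (adjusted p = 8.25e-15) and 1.02 with ACBI (adjusted p = 0.00132). Of the 7 tested genes of the list, 3 were higher, 3 were lower and 1 did not pass. The median of the list was -0.95, and it was 0.10 without replicate 1 of P-16, again with 3 higher and 3 lower. TIPARP, a repressor of the receptor, and AHR, the receptor gene, were higher with ACBI, by 1.37 ± 0.11 and 1.17 ± 0.12.

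Metal and polyamine genes had no common direction. Among 11 genes of iron handling, 5 were higher, 5 were lower and 1 did not pass, with TFRC, the transferrin receptor gene, at -1.21 ± 0.043 and STEAP3 at -1.50 ± 0.075. Among 8 metallothionein and zinc genes, 3 were higher, 4 were lower and 1 did not pass; MT1G was lower at -1.84 ± 0.078 while MT1X and MT1F were higher by 0.76 and 0.75, with the caution that these are near-identical copies. Polyamine genes were divided, 6 of 12 higher and 5 lower: SAT1, which breaks polyamines down, had 339, 345 and 354 CPM in the ACBI libraries, against 117, 109 and 114 CPM in the P-16 libraries and was higher by 1.61 ± 0.035, and SMS, spermine synthase, by 1.33 ± 0.043, whereas ODC1, the first enzyme of synthesis, was lower at -1.62 ± 0.037 and SRM, spermidine synthase, at -1.15 ± 0.043.

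Cholesterol synthesis was higher with ACBI than with P-16. Of 26 tested genes, 20 were higher, 5 were lower and 1 did not pass (median 0.45), where 35% of all genes were higher. INSIG1, the sterol-sensing brake on SREBP, had 197, 198 and 213 CPM in the ACBI libraries, against 85.3, 86.9 and 86.9 CPM in the P-16 libraries (log2 fold change 1.23 ± 0.044). LSS, lanosterol synthase, was higher by 1.09 ± 0.049, and INSIG2 was lower at -0.60 ± 0.071. Without replicate 1 or 2 of P-16, 3 genes were lower. Against DMSO, ACBI had 20 genes of the list higher and 3 lower (median 0.446), and P-16 had 4 higher and 4 lower (median -0.040). Of all genes, 35.4% were higher and 36.6% lower with ACBI than with DMSO, and 12.4% and 11.6% with P-16. Fatty acid genes were mixed: of 21, 9 were higher, 11 were lower and 1 did not pass. ACSL1, which activates fatty acids, was lower at -1.14 ± 0.037 and SCD, the stearoyl-CoA desaturase, at -0.95 ± 0.032, while ACSL3 and ACACA, acetyl-CoA carboxylase, were higher by 1.69 ± 0.050 and 0.93 ± 0.036. ELOVL2, an elongase of polyunsaturated fatty acids, was higher by 2.92 ± 0.47, with means of 1.34 and 0.181 CPM for ACBI and P-16.

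Most subunits of the BAF and PBAF remodelling complexes changed by less than 2-fold, and in both directions. Of 29 tested, 10 were higher, 10 were lower and 9 did not pass (median -0.033), a share of 69% called against 71.5% of all genes. By at least 2-fold, 0 were higher and 1 was lower, and log2 fold changes ran from -1.455 to 0.88. ARID2, a PBAF subunit, had 149.6, 144 and 147 CPM in the ACBI libraries, against 79.8, 79.0 and 80.8 CPM in the P-16 libraries and 77.4, 78.4 and 78.1 CPM in the DMSO libraries (log2 fold change 0.88 ± 0.038, adjusted p = 1.24e-18), and ARID1A, a BAF subunit, was higher by 0.60 ± 0.045. PBRM1, which holds several bromodomains in PBAF, was lower at -0.37 ± 0.041, SMARCC1, a core subunit, at -0.56 ± 0.037 and SMARCD2 at -0.53 ± 0.033. SMARCA4, one of the ATPases, was lower at -0.25 ± 0.038 and the other, SMARCA2, did not pass (95% interval -0.19 to 0.020). BRD7 had 53.4, 58.8 and 61.8 CPM in the ACBI libraries, against 51.6, 54.2 and 55.7 CPM in the P-16 libraries and 58.1, 59.8 and 54.1 CPM in the DMSO libraries and did not pass (95% interval -0.019 to 0.23), and neither did BRD9 (95% interval -0.16 to 0.069). Without replicate 3 of ACBI SMARCA2 passed at -0.13, and without replicate 1 of ACBI BRD7 passed at 0.17 (log2). These are levels of messenger RNA, and protein was not measured.

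Other chromatin genes included some with larger differences. HELLS, a remodelling ATPase active in S phase, had 1.05, 1.13 and 1.04 CPM in the ACBI libraries, against 7.73, 9.15 and 8.60 CPM in the P-16 libraries (log2 fold change -2.98 ± 0.15), and among 17 other remodelling ATPases 7 were higher, 7 were lower and 3 did not pass, with CHD3 higher by 0.80 ± 0.036 and CHD4 lower at -0.57 ± 0.038. Of 23 polycomb genes, 13 were higher, 4 were lower and 6 did not pass (median 0.29): EZH2, the methyltransferase, had 11.5, 13.4 and 12.9 CPM in the ACBI libraries, against 31.8, 25.7 and 27.5 CPM in the P-16 libraries and 39.8, 36.7 and 35.8 CPM in the DMSO libraries (log2 fold change -1.17 ± 0.086, adjusted p = 3.66e-13), CBX2 was lower at -1.64 ± 0.058, and RBBP7, CBX7 and EZH1 were higher by 0.92, 0.76 and 0.59. Among 15 BET and P-TEFb genes, HEXIM1, an inhibitor of P-TEFb, had 226, 214 and 228 CPM in the ACBI libraries, against 102, 102 and 104 CPM in the P-16 libraries and 84.9, 85.0 and 90.3 CPM in the DMSO libraries (log2 fold change 1.12 ± 0.041, adjusted p = 2.89e-20), BRD2 was higher by 0.54 ± 0.040, and BRD3 and MEPCE were lower at -0.40 ± 0.041 and -0.67 ± 0.047.

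Clustered histone genes were higher, unlike the replication genes. Their transcripts normally end without a poly(A) tail, and the libraries were made from messenger RNA. Of 40 tested of 56, 24 were higher, 4 were lower and 12 did not pass (median 1.14). H1-2, a linker histone gene, had 188, 191 and 199 CPM in the ACBI libraries, against 57.2, 62.1 and 59.6 CPM in the P-16 libraries and 61.3, 58.0 and 60.3 CPM in the DMSO libraries (log2 fold change 1.69 ± 0.047, adjusted p = 2.31e-23). H2BC21 was higher by 1.90 ± 0.036, and H2AC18 and H2AC19, whose coding sequences are near-identical, by 2.96 ± 0.057 and 2.92 ± 0.059, where the split of reads is uncertain. H3C12 was lower at -2.09 ± 0.55, and H2AC14 had 3 counts with ACBI against 23 with P-16 (ratio 8.73, 95% counting interval 2.64 to 45.4). With a stricter filter 2 of the list were lower. The shares of polyadenylated and other transcripts were not measured.

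**Figure D5:**
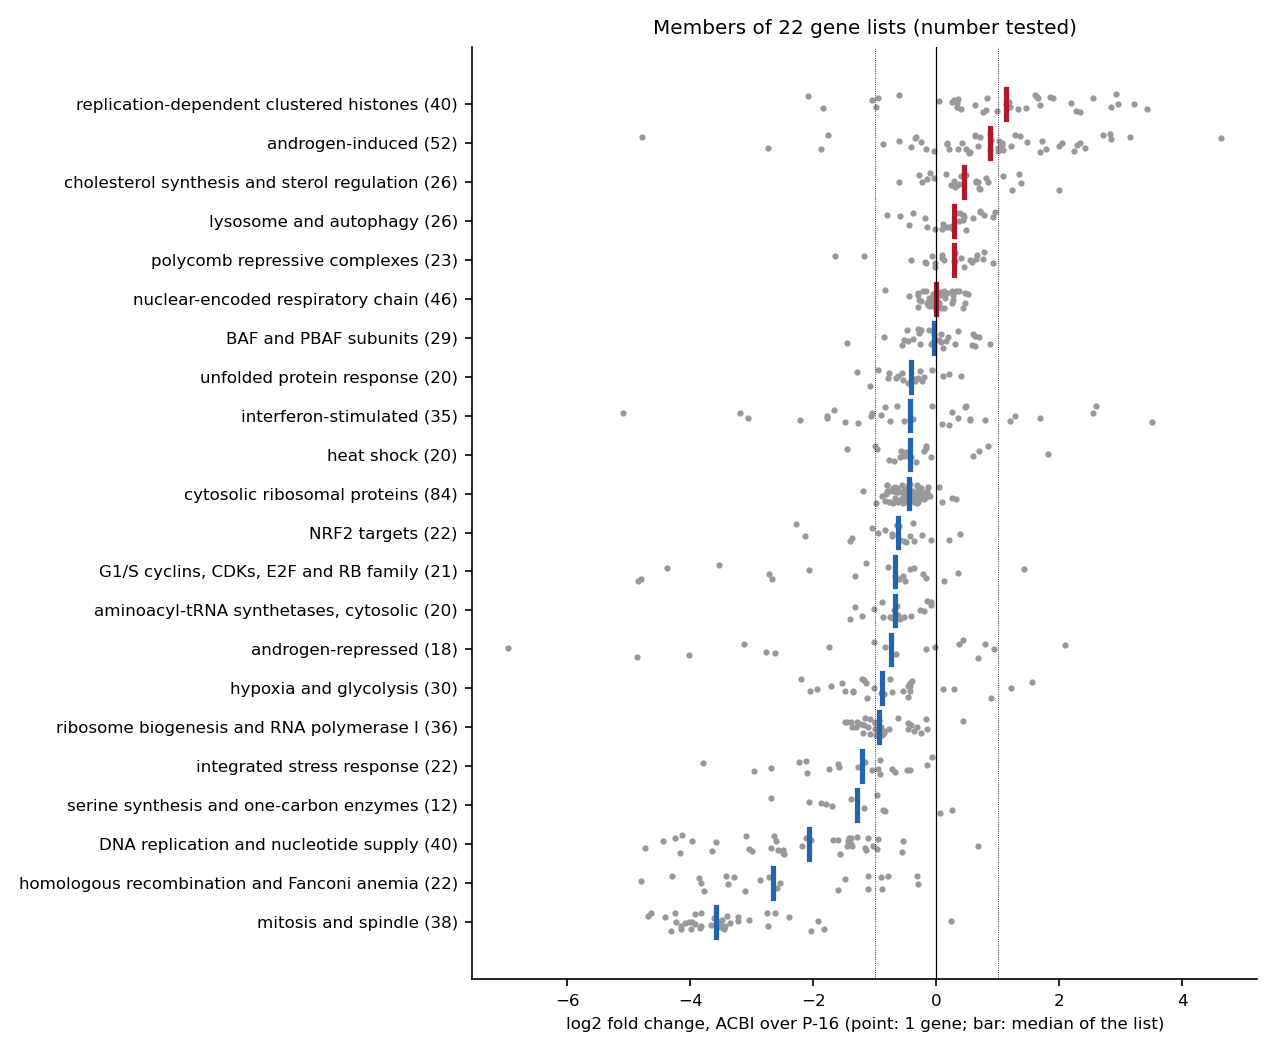
Log2 fold change of ACBI over P-16 (horizontal axis) for each tested member of 22 gene lists (points) and the median of each list (bar, blue below 0 and red above), ordered by median. 4 members with 3 counts or fewer in a group are not drawn but stand in the medians, and dotted lines mark 2-fold. Of the 38 mitosis genes, 37 lie left of the 2-fold line, and the respiratory chain and BAF lists centre near 0.

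Signalling lists had members in both directions, and the WNT list leaned lower. The share called was 81.8% for the Notch list, 62.5% for TGF-beta and BMP, 91.7% for PI3K and growth factors and 72.7% for immediate-early genes. Of all genes, 71.5% were called. Among 22 genes of the Notch pathway and HES family, 9 were higher, 9 were lower and 4 did not pass. Besides HES6, HEY1, a Notch target, was higher by 3.31 ± 0.36 with means of 4.06 and 0.396 CPM for ACBI and P-16, NUMB, a Notch inhibitor, was higher by 1.07 ± 0.043, and NOTCH1 and the ligand JAG2 were lower at -1.65 ± 0.062 and -1.28 ± 0.045. HES1 did not pass. In the hedgehog pathway, GLI1 was 22.3-fold higher, but PTCH1, the receptor gene that hedgehog signalling also induces, had 38.7, 33.3 and 38.2 CPM in the ACBI libraries, against 32.0, 29.5 and 31.9 CPM in the P-16 libraries (log2 fold change 0.24 ± 0.071). Of 8 tested genes of the pathway, 4 were higher and 2 lower, and without replicate 3 of ACBI or replicate 2 of P-16 0 were lower.

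Of 21 WNT genes, 6 were higher, 12 were lower and 3 did not pass (median -0.64), where 36.5% of all genes were lower. By at least 2-fold, 9 were lower and 0 higher, against 13% and 7.28% of all genes. The lower genes included the feedback inhibitors NKD1 (-1.83 ± 0.093) and NKD2 (-2.17 ± 0.15) and the ligand WNT10A (-3.78 ± 0.23). CTNNB1, beta-catenin, was higher by 0.59 ± 0.035, and AXIN2 did not pass (without replicate 1 of P-16 it did, at 0.28). Of 24 TGF-beta and BMP genes, 9 were higher, 6 were lower and 9 did not pass, with ID2 higher by 1.78 ± 0.14 and BAMBI, a decoy receptor, lower at -1.10 ± 0.064. PI3K and growth factor genes included MTOR, with 233, 229 and 210.2 CPM in the ACBI libraries, against 109, 109 and 116 CPM in the P-16 libraries (log2 fold change 1.01 ± 0.043), FGFR3, higher by 2.02 ± 0.16, and PIK3R1, the regulatory subunit of PI3K, lower at -1.6 ± 0.051; of 24, 13 were higher, 9 were lower and 2 did not pass. Hippo outputs split, with CCN1 higher by 1.45 ± 0.11 and AJUBA, TEAD4 and AMOTL2 lower at -1.80, -1.86 and -1.23. Of 22 immediate-early genes, 10 were higher, 6 were lower and 6 did not pass: EGR1 was higher by 2.46 ± 0.18, and IER5 was lower at -1.84 ± 0.11.

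Structural and lineage markers changed too. FN1, fibronectin, had 2722, 2674 and 2511 CPM in the ACBI libraries, against 922, 919.7 and 929 CPM in the P-16 libraries and 960.4, 979 and 979 CPM in the DMSO libraries (log2 fold change 1.51 ± 0.035, adjusted p = 1.57e-25), and LAMC1, a laminin chain, was higher by 1.87 ± 0.035. TNC, tenascin C, had 1 count with ACBI against 148 with P-16 (ratio 168, 95% counting interval 29.8 to 6700). Of 31 matrix and integrin genes, 14 were higher, 16 were lower and 1 did not pass. VIM, vimentin, was lower at -1.87 ± 0.092. Of the 4 mesenchymal markers tested, of 10 listed, FN1 was the 1 that was higher. The other 3, VIM among them, were lower (median of the list -1.035), where 36.5% of all genes were lower. Among keratins, KRT19 was 18.3-fold and KRT80 30.2-fold lower, whereas KRT8 was higher by 0.45 ± 0.040 and KRT18 lower at -0.11 ± 0.036. SYP, synaptophysin, a vesicle protein used as a neuroendocrine marker, had 13.6, 14.5 and 15.0 CPM in the ACBI libraries, against 2.40, 2.60 and 2.23 CPM in the P-16 libraries and 2.62, 2.48 and 2.05 CPM in the DMSO libraries (log2 fold change 2.57 ± 0.15, adjusted p = 3.42e-15). SCG3, a granin-family gene, had 75 counts with ACBI against 3 with P-16 (ratio 22, 95% counting interval 7.23 to 109). CHGA had 8 counts against 1 and CHGB 18 against 1 over 3 libraries each, too few to be tested, and ENO2 was lower at -0.35 ± 0.049, and of the 5 neuroendocrine markers tested, of 10 listed, 2 were higher, 2 were lower and 1 did not pass.

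Interferon-stimulated genes went both ways. Of 35 interferon-stimulated genes, 13 were higher, 17 were lower and 5 did not pass (median -0.43). Of all genes, 35% were higher and 36.5% lower. The median of the list was 0.094 with a stricter filter on low counts (12 higher and 12 lower). It was -0.23 in a fit of the 6 libraries alone and -0.28 without replicate 2 of ACBI. HERC5 and HERC6, neighbouring ubiquitin-like ligase genes, were higher, HERC6 with 57.0, 57.9 and 55.0 CPM in the ACBI libraries, against 9.77, 8.88 and 9.43 CPM in the P-16 libraries and 10.7, 12.4 and 9.94 CPM in the DMSO libraries (log2 fold change 2.59 ± 0.079, adjusted p = 1.82e-22) and HERC5 by 3.50 ± 0.11. IRF9 was higher by 1.69 ± 0.11. OAS3 was lower at -1.06 ± 0.063, GBP2 at -5.09 ± 0.32 and IFIT3 at -3.06 ± 0.36. With P-16, 1 of the 35 was higher and 1 lower than with DMSO, where 12.4% and 11.6% of all genes were. Among 16 antigen presentation genes, 4 were higher, 9 were lower and 3 did not pass: NLRC5, the activator of class I genes, was lower at -3.29 ± 0.14, TAPBP and ERAP1 were higher by 1.08 ± 0.045 and 1.06 ± 0.067, and B2M did not pass. Of 8 NF-kB targets, TNFAIP3 was higher by 1.86 ± 0.16 and TNFAIP2 lower at -3.39 ± 0.23.

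Targets of p53 were more often lower. Of 25, 8 were higher, 14 were lower and 3 did not pass (median -0.25), where 35% of all genes were higher and 36.5% lower. PLK2 was at -2.16 ± 0.068, BTG2 at -1.39 ± 0.048 and SESN1 at -0.86 ± 0.043 beside CDKN1A. TP53I3 was higher by 1.72 ± 0.090 and MDM2 did not pass. In the BCL2 family, 6 of 17 were higher, 10 were lower and 1 did not pass, a share of 94.1% called against 71.5% of all genes. BCL2L1, the anti-apoptotic BCL-XL gene, had 246, 244 and 232 CPM in the ACBI libraries, against 122, 121 and 129 CPM in the P-16 libraries and 121, 123 and 123 CPM in the DMSO libraries (log2 fold change 0.96 ± 0.037, adjusted p = 8.63e-20). BCL2 was lower at -1.54 ± 0.16, BCL2L11, which encodes BIM, at -0.92 ± 0.051, BID at -1.71 ± 0.094 and PMAIP1, which encodes NOXA, at -1.62 ± 0.12, so the lower genes included both pro- and anti-apoptotic members.

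Respiratory chain and proteasome genes had medians near 0. Of 46 nuclear genes of the respiratory chain, 15 were higher, 15 were lower and 16 did not pass, 0 by 2-fold, with a median of 0.00239. CYC1, cytochrome c1, had the smallest p, at -0.83 ± 0.043. Of 31 proteasome genes, 14 were higher, 8 were lower and 9 did not pass and 0 by 2-fold (median 0.049), with 9 higher and 9 lower when libraries were scaled by their totals. Lysosome and autophagy genes leaned higher: of 26, 18 were higher, 5 were lower and 3 did not pass (median 0.29). Of all genes, 35% were higher and 36.5% lower. NEU1, a lysosomal sialidase, was higher by 0.96 ± 0.050 and MAP1LC3B, an autophagosome protein, by 0.72 ± 0.046. Common reference genes were not level, with a median of -0.38 and 85.7% called against 71.5% of all genes. Of 14, 3 were higher, 9 were lower and 2 did not pass: GAPDH had 3149, 3072 and 2767 CPM in the ACBI libraries, against 5344, 5527 and 5349.7 CPM in the P-16 libraries and 3987, 3835 and 3994 CPM in the DMSO libraries (log2 fold change -0.85 ± 0.035, adjusted p = 7.4e-19), ACTB was higher by 0.63 ± 0.035, PPIA lower at -0.56 ± 0.041, and B2M and GUSB had intervals of -0.043 to 0.12 and -0.040 to 0.15.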

How the data were processed

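Messenger RNA was sequenced from 18 LNCaP libraries, 3 per condition, made with a stranded kit per the labels' protocols. The deposited table holds expected counts, which the authors estimated per gene and library, with decimals and not scaled to depth. The submitters' processing notes name hg38, STAR, Partek and DESeq2; versions, annotation, strand setting and filters are not given in the sources used here. The columns named PB_16 were taken as P-16. Rows of mitochondrially encoded genes were not analysed here.

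After rounding, the test was run in edgeR 4.0.16 in R 4.3.3. filterByExpr with 6 groups left 15422 genes. TMM factors scaled the libraries, and 1 robust quasi-likelihood fit took in all 18 (12 residual degrees of freedom, biological coefficient of variation 0.0573), and two-sided p-values got a Benjamini-Hochberg adjustment across each contrast, with 0.05 as threshold. CPM values carry the TMM factors. In the 6 libraries compared, 3 counts equal 0.115 to 0.165 CPM, and reads carry no molecular identifiers, so counting intervals cover counting error only.

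The comparison, the 57 gene lists and the rule for named genes were chosen with earlier results of these data known. The rule named the 12 largest rises and falls (no overlap, a gene symbol, an adjusted p under 0.05 and 4 CPM or more in the higher group), the 6 largest differences in CPM per direction, the 4 members of each list with the smallest p and a panel, and other members were added after their values were seen. Not all genes so named are described, and some are not reported here. Lists are described by counts and medians over tested members, 1427 of 1560 listed genes, with no list test. Their counts for ACBI against P-16 stand beside 35% of all genes higher and 36.5% lower. Counts against DMSO stand beside 35.4% higher and 36.6% lower for ACBI, and 12.4% and 11.6% for P-16. Libraries were treated as unpaired: same-number residuals of ACBI and P-16 correlated at 0.0379, 0.00898 and 0.0242. In data simulated with both groups drawn from the P-16 means (15273 genes), only 50 genes each were set to differ, at 1.25, 1.5, 2 and 4-fold. Of these, 48%, 82%, 98% and 100% were recovered, and 11 of 175 calls (6.29%) were of unchanged genes. In the data 71.5% of genes were called, and the adjustment of p-values depends on that share. The simulated shares therefore do not describe the comparison made here. Motifs were searched in 250 bases before the start, on both strands. Alternatives were DESeq2 1.42.0, RLE factors, library totals, no filter, a replicate block, a stricter filter, a fit restricted to the 2 groups, removal of ribosomal RNA genes and removal of each library in turn. Figures were drawn with matplotlib 3.10.9.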

Additional observations from a re-analysis of the deposited data

How the results depend on the processing

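The count of genes that differed between ACBI and P-16 was 11024, and it was 10041 with a stricter filter, 11320 with no filter, 10805 with DESeq2, 10394 in a fit of these 6 libraries alone, 11046 without ribosomal RNA genes and 10539 to 10853 with 1 library left out. With a replicate block it was 10956, and since same-number libraries share only a number this fit is given as a comparison of counts. In each of the 14 alternatives, 0 genes were called in the opposite direction. Counts at 2-fold ran from 860 to 1301 higher and from 1377 to 2276 lower. Scaling by library totals put 46.5% of calls higher with ACBI, against 49%, and shifted the log2 fold changes of single genes by a median of -0.0297. For P-16 against DMSO the count was 3699, with 4531 in a fit of those 6 libraries alone and 2854 to 3155 with 1 library left out.

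Of 316 genes recomputed one by one, 303 had a value under all 14 alternatives, and 289 of these kept their call and direction throughout. The other 13 had no value under at least 1 alternative that left them out, and 9 of these kept call and direction under those that gave one. Log2 fold changes that changed sign belonged to 5 genes that did not pass, and the cause was not tested. With 1 library left out, ADM ran from -0.032 to 0.24, B2M from -0.0010 to 0.077, CDKN2A from -0.0593 to 0.20, MDM2 from -0.11 to 0.0057 and MAX from -0.028 to 0.034. MAX, at -0.0028, had 0.00040 with DESeq2, 0.00010 with RLE factors, 0.0057 with no filter and 0.0081 without ribosomal RNA genes. With 3 libraries per group and a median standard error of 0.078, small differences were often not detectable at this depth.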

Other observations

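Zinc finger genes of chromosome 19, mostly KRAB-type repressors of repeats, leaned higher with ACBI than with P-16: of 240 tested, 110 were higher, 54 were lower and 76 did not pass (median 0.16), where 35% of all genes were higher and 36.5% lower, and 10 were higher and 5 lower by 2-fold. ZNF615 had 29.6, 31.7 and 33.8 CPM in the ACBI libraries, against 15.3, 16.7 and 14.2 CPM in the P-16 libraries and 16.4, 17.8 and 16.3 CPM in the DMSO libraries (log2 fold change 1.04 ± 0.076), without overlap between ACBI and P-16. Against DMSO, 77 were higher and 73 lower with ACBI (median log2 fold change 0.034), and 4 were higher and 56 lower with P-16 (median -0.14), where 12.4% and 11.6% of all genes were. Clock genes had both directions, with 9 of 18 higher and 7 lower: PER2, a repressor of the clock, had 54.9, 48.4 and 47.8 CPM in the ACBI libraries, against 20.4, 23.0 and 24.3 CPM in the P-16 libraries and 25.7, 26.4 and 26.4 CPM in the DMSO libraries (log2 fold change 1.17 ± 0.068).

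By chromosome, the share of tested genes that were higher with ACBI ran from 19.8% on chromosome 21 (39 of 197) and 26.3% on chromosome 16 (193 of 734) to 45.4% on chromosome 18 (98 of 216), against 35% of all genes. The share that were lower was 41.1% on chromosome 21, 43.7% on chromosome 16 and 31.9% on chromosome 18, against 36.5% of all genes. Chromosome 21 holds the 18 tested ribosomal RNA genes, of which 1, RNA28SN3, passed. Its log2 fold change was 0.36 without replicate 3 of ACBI, 2.29 without replicate 1 of P-16 and 2.40 without replicate 3 of P-16, and it did not pass in any of these. These copies are near-identical and share reads, their counts follow replicate 3 of ACBI, and they were not interpreted.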
